A study of Mus musculus with 4 samples.

Results

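The Dusp genes examined here, Dusp1, Dusp2, Dusp4, Dusp5 and Dusp6, encode dual-specificity MAP kinase phosphatases, and the data on them are the intervals of open chromatin that differed between control and MCD-treated RAW macrophages. Their intervals were chosen by position, as the rows of the deposited differential table whose nearest transcription start site (TSS) belongs to 1 of the 5 genes. In all, 17 of the 3812 intervals in the table met this rule. Dusp1 had 2, Dusp2 had 3, Dusp4 had 8 and Dusp5 had 4, while Dusp6 had 0. Because the table lists intervals that the authors' own comparison called at an FDR of at most 0.05, the values that chose these intervals are the same ones described below, and no test was made on them.

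Dual-specificity MAP kinase phosphatases remove phosphate from both the threonine and the tyrosine of the activation loop of MAP kinases (ERK, JNK and p38), and so switch the kinases off. Many are transcribed quickly after the kinases have been activated, which closes a negative feedback loop. In macrophages Dusp1 is known for restraining p38, JNK and the output of inflammatory cytokines after Toll-like receptor stimulation.

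Chromatin accessibility was measured by ATAC-seq, in which a transposase cuts and tags DNA that is not covered by nucleosomes, in RAW264.7 cells, a mouse macrophage line (the labels write RAW 267.4). Untreated control cells (2 samples) were compared with cells exposed to 5 mM methyl-β-cyclodextrin (MCD) for 1 hr in medium with BSA (2 samples), both grown in DMEM with FCS. MCD is a ring-shaped sugar that draws cholesterol out of membranes. The comparison addresses which chromatin opens or closes when macrophage cholesterol is lowered. The study's general methods put both MCD and the water used as negative control in DMEM with fatty acid-free BSA, while its ATAC-seq methods and the labels call the controls untreated. The methods describe duplicates, and the sources used here do not say whether these were separate cultures. The labels call the cells macrophages, and a table that holds differential intervals alone does not allow this to be checked against marker genes.

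The table gives each 201 bp interval the log2 of its mean normalized read count in control and in MCD. These means split exactly into whole reads of 2 libraries per condition in all 3812 intervals, with size factors of 0.946 and 0.877 in control and 1.15 and 1.03 in MCD. The libraries are called a and b, since nothing links them to the numbered samples. They held 216050 to 396444 reads over all intervals. Over these rows the a and b libraries differed by no more than the sampling noise (chi-square per degree of freedom 0.917 in control and 0.980 in MCD, where counting alone gives about 1). The rows had been chosen in part for small spread beside their difference, so this value does not show whether the 2 samples of a condition are separate, and the spread between a and b in these rows may understate that between samples. Of all intervals, 73.2% were higher after MCD and 57.3% were higher by at least 1 on the log2 scale. Both MCD libraries lay above both control libraries in 73.2% of all intervals, that is in every interval that was higher, so this separation carries no further information about the Dusp intervals.

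All 17 Dusp intervals were higher after MCD, against 73.2% of the table, and 14 of them were higher by at least 1 on the log2 scale, against 57.3% of the table and 78.3% of the intervals that were higher. Their median difference was 1.51, with a range of 0.49 to 2.38, beside 1.39 for all 2790 intervals that were higher. The median normalized read count went from 41.5 in control to 142 in MCD, compared with 29.2 and 78.6 over all higher intervals. Control levels of the Dusp intervals ranged over 45.3-fold, from 5.53 to 251 reads, and MCD levels over 12.7-fold, from 27.6 to 351 reads. The lowest MCD library exceeded the highest control library by 1.33-fold to 4.14-fold. The 2 libraries of a condition differed by a median of 1.17-fold in control and 1.09-fold in MCD.

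**Figure D1:**
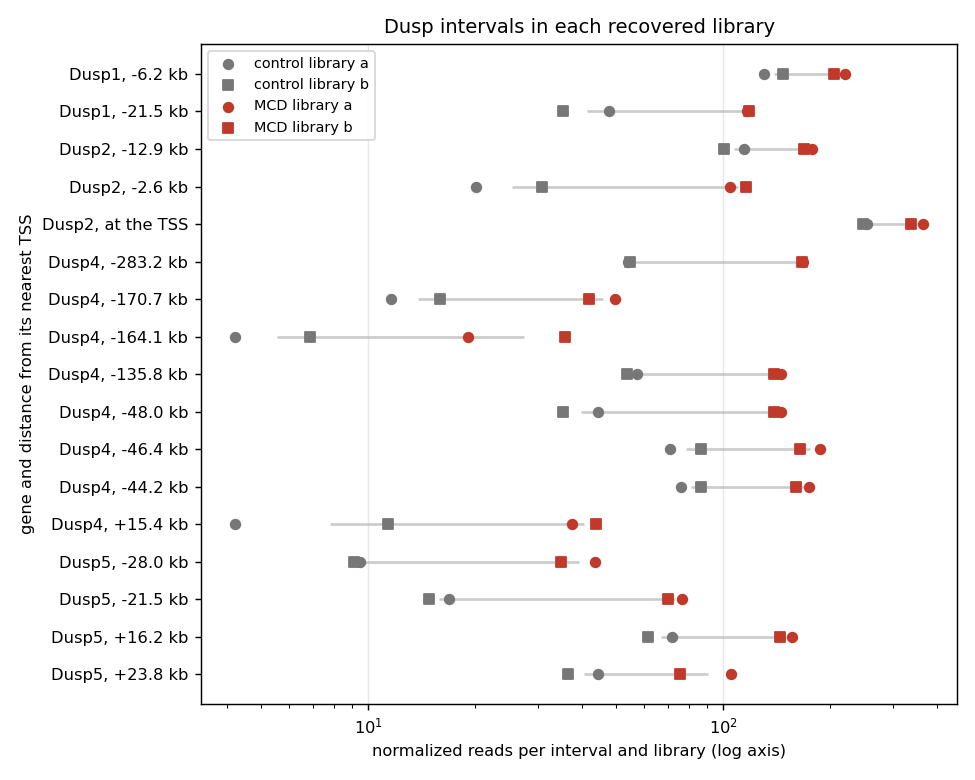
Normalized reads (x axis, log scale) of the 17 Dusp intervals (y axis, gene and distance from its nearest TSS) in the 2 control libraries (grey) and the 2 MCD libraries (red), with circles for library a, squares for library b and a line between the condition means. The red symbols lie to the right of the grey ones in all 17 intervals, and the control levels run from 4.23 to 254 reads.

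The reference sequences of 7 intervals are shown because they carry the features the values below refer to, namely AP-1 sites, the single κB site, the interval at a TSS and the largest differences near Dusp2 and Dusp5. They are from the plus strand of the GRCm38 genome of RefSeq, and capitals mark matches to the AP-1 consensus TGANTCA or to the κB consensus.
Dusp1 chr17:26514764-26514964: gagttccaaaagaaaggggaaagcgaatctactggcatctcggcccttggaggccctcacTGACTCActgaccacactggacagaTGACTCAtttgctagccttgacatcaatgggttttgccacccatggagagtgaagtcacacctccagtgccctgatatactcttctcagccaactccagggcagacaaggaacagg
Dusp2 chr2:127333363-127333563: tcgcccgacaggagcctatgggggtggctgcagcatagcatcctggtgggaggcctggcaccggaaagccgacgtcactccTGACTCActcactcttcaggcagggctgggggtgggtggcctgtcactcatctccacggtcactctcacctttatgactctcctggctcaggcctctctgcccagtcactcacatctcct
Dusp2 chr2:127336031-127336158: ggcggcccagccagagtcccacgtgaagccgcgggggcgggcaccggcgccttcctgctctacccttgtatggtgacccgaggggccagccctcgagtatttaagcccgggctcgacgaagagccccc
Dusp4 chr8:34523924-34524124: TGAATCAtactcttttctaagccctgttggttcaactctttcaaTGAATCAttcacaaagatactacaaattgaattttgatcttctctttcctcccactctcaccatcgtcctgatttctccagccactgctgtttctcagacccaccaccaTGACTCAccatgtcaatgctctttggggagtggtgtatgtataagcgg
Dusp4 chr8:34759128-34759328: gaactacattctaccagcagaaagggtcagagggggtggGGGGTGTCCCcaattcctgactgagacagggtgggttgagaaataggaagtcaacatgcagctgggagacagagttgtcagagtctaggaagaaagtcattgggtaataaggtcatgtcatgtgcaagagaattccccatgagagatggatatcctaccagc
Dusp5 chr19:53507418-53507618: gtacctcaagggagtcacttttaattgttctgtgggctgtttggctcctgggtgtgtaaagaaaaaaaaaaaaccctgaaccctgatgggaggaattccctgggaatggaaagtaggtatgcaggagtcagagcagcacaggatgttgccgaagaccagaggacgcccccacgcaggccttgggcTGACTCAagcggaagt
Dusp5 chr19:53552879-53553079: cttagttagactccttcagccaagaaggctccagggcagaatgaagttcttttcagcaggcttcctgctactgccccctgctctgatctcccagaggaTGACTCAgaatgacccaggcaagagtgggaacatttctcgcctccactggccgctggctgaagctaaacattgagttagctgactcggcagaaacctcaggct
The interval at the Dusp2 TSS is cut at the base before the start, so that the transcribed part is left out.

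Dusp1, a nuclear phosphatase of p38, JNK and ERK, had 2 intervals upstream of its main TSS on the minus strand of chromosome 17. The nearer, chr17:26514764-26514964, lies 6245 bp upstream, in an intron of a long Dusp1 transcript, and held 130 and 147 normalized reads in the control libraries and 220 and 205 in the MCD libraries. This is a difference of 0.62 on the log2 scale, or 1.53-fold. Its sequence holds 2 AP-1 sites, at 26514824 and 26514849. The farther interval, chr17:26529974-26530174, lies 21455 bp upstream in the same long transcript and held 47.6 and 35.3 reads in control and 117 and 119 in MCD. The farther interval was higher by 1.51 (2.84-fold) and holds 1 AP-1 site, so that the interval with fewer reads in control had the larger difference. The Dusp1 gene model runs from 26505590 to 26562128, because a pair of its 6 transcripts start far upstream. If each gene is given only its outermost TSS, both intervals go to other genes. With all annotated genes, the farther interval goes to AC122252.4 and the nearer one stays with Dusp1.

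Dusp2, a nuclear phosphatase found mainly in immune cells, had 3 intervals on chromosome 2, and they differed widely from each other. The interval chr2:127336031-127336231 covers the TSS and held 254 and 247 normalized reads in control and 365 and 337 in MCD. This difference of 0.49 (1.40-fold) was the smallest of the 2790 intervals that were higher after MCD, and its levels were the highest of those intervals in both conditions. With 70.1% G and C and none of the 7 motifs searched, it was also the Dusp interval with the highest GC content. A further interval, chr2:127333363-127333563, lies 2596 bp upstream and held 20.1 and 30.8 reads in control and 105 and 116 in MCD. Here the difference was 2.11 (4.33-fold), and the sequence holds 1 AP-1 site. The third interval, chr2:127323009-127323209, is intergenic, 12950 bp upstream, and went from 114 and 100 reads to 178 and 169 reads. Its difference was 0.69 (1.62-fold), and it also holds 1 AP-1 site.

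Dusp4, another nuclear phosphatase of ERK, JNK and p38, had the most intervals, 8, which spanned 299016 bp on chromosome 8. Under this assignment 15 genes, or 0.581% of the 2582 genes with an interval, had 8 or more. With all annotated genes some of the 8 go to other genes, as given below. Genes with 8 or more were not counted under that assignment. All 8 were higher by at least 1 on the log2 scale, with a median of 1.68, and none lay within 3 kb of the single annotated Dusp4 TSS.

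Upstream of Dusp4, 3 intervals formed a cluster 44202 to 47969 bp from the TSS. The first, chr8:34759128-34759328, held 44.4 and 35.3 normalized reads in control and 146 and 139 in MCD, a difference of 1.84. It is the only one of the 17 with a κB site, the binding site of NF-κB, which reads GGGACACCCC on the minus strand. The next, chr8:34760662-34760862, held 70.8 and 86.6 reads in control and 187 and 164 in MCD, a difference of 1.16. The last of the cluster, chr8:34762895-34763095, held 76.1 and 86.6 reads in control and 174 and 160 in MCD, a difference of 1.04, which was 0.95 without control library a and 0.98 without MCD library a. The gaps between them were 1334 and 2033 bp, and AP-1 sites lie in the latter pair. The cluster thus held the 2 Dusp4 intervals with the most reads in control and with the smallest differences of the 8.

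The other Dusp4 intervals lie farther from one another. The most distant, chr8:34523924-34524124, is 283173 bp upstream in an intron of Gm33968, and held 53.9 and 54.7 normalized reads in control and 167 and 167 in MCD. It was higher by 1.62 (3.08-fold) and holds 3 AP-1 sites, more than any of the other Dusp intervals. An interval 170672 bp upstream, in an intron of B930018H19Rik, went from 11.6 and 16.0 reads to 49.7 and 41.8 reads, a difference of 1.73. The interval 164068 bp upstream had few reads, 4.23 and 6.84 in control and 19.2 and 35.9 in MCD, and its MCD libraries differed by 1.87-fold, the widest such gap of the 17. Its difference of 2.32 rests on 4 and 6 whole reads in control. An interval 135764 bp upstream, which holds a PU box, the site of the macrophage factor encoded by Spi1, went from 57.1 and 53.6 reads to 146 and 139 reads, a difference of 1.36. The interval downstream of the gene, chr8:34822739-34822939, lies 15442 bp past the TSS and went from 4.23 and 11.4 reads to 37.5 and 43.7 reads. It had the largest difference of the 17, 2.38 (5.20-fold), from 4 and 10 whole reads in control, and repeats cover 72.6% of it. This value rests on control libraries that differed by 2.70-fold. Without control library b the difference was 3.26 (9.60-fold), and without control library a it was 1.83, the 6th of the 17. Without MCD library a or b it was the second largest.

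When intervals were assigned among all annotated genes, including those without an Entrez identifier, the 4 Dusp4 intervals beyond 100 kb went to Gm33968, B930018H19Rik and Gm45627. The 3 intervals of the cluster and the downstream one stayed with Dusp4. Nearest-TSS assignment does not show that an interval acts on Dusp4.

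Dusp5, a nuclear phosphatase selective for ERK, had 4 intergenic intervals over 52147 bp of chromosome 19, with a median difference of 1.62. The 2 upstream intervals had the larger differences. The one at 21491 bp, chr19:53507418-53507618, held 16.9 and 14.8 normalized reads in control and 76.7 and 70.0 in MCD, a difference of 2.21 (4.62-fold), with 1 AP-1 site. The one at 27976 bp, chr19:53500933-53501133, held 9.51 and 9.12 reads in control and 43.6 and 35.0 in MCD, a difference of 2.08 (4.22-fold), with none of the motifs searched. That value rests on 9 and 8 whole reads in control. Downstream of the TSS the levels in control were higher and the differences smaller. The interval chr19:53545286-53545486, 16177 bp past the TSS, went from 71.9 and 61.6 reads to 156 and 145 reads, a difference of 1.17, and repeats cover 82.1% of it. The interval chr19:53552879-53553079, 23770 bp past the TSS, went from 44.4 and 36.5 reads to 105 and 75.8 reads, a difference of 1.16. This difference was 0.91 without MCD library a, and 1.03 to 1.38 when any other library was left out. The AP-1 site of this interval lies 1 bp from the interval centre. When genes without an Entrez identifier were included, the outermost upstream interval and both downstream ones went to AC123702.1 and AC137853.2.

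Dusp6, the cytoplasmic phosphatase selective for ERK, had no interval. The nearest rows lay 295885 bp downstream and 319113 bp upstream of its start sites. The downstream row was intergenic, and its nearest TSS, that of Csl, was 197932 bp away. The upstream row lay in an intron of Atp2b1, 28446 bp from a TSS of that gene. Because the table lists differential intervals alone, the lack of an interval gives no accessibility value for Dusp6. Peaks that did not differ are not analysed here.

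**Figure D2:**
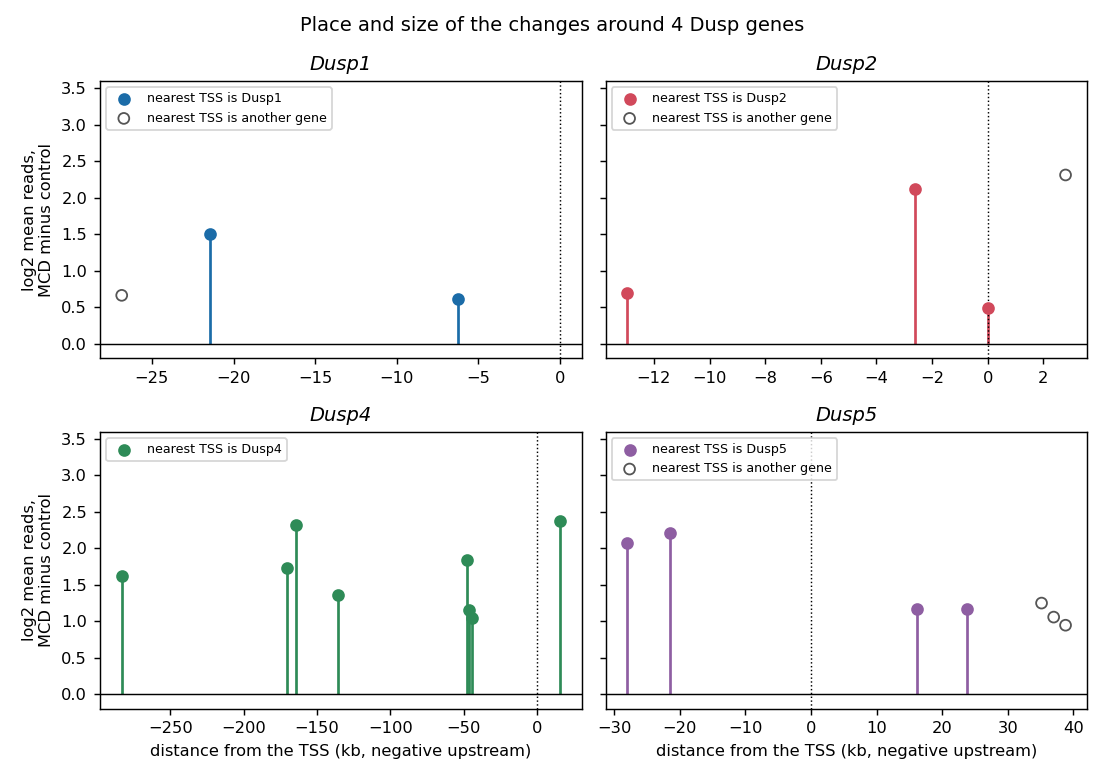
Difference in log2 mean reads (MCD minus control, y axis) at each interval around Dusp1, Dusp2, Dusp4 and Dusp5, against its distance from the TSS in kb (x axis, negative upstream, a different range in each panel). Filled circles on stems are intervals whose nearest TSS is the named gene and open circles those within 50 kb that are nearest to another gene. Every interval drawn lies above 0, and the Dusp4 intervals reach 283173 bp upstream.

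The rule left out 5 intervals within 50 kb of a Dusp TSS that lie closer to another gene, and all 5 were higher after MCD. At Dusp1 the interval chr17:26535372-26535572, in an intron of the long transcript, lies 25917 bp from a TSS of Ergic1 and 25927 bp from a TSS of Dusp1. It went from 132 to 208 mean reads, a difference of 0.66. At Dusp2 the interval chr2:127339409-127339609 lies 1033 bp past the end of Dusp2 and 2799 bp from its nearest TSS, but 770 bp from that of Astl. Its mean reads went from 34.1 to 169, a difference of 2.31, which exceeds each of the 3 Dusp2 intervals. Past Dusp5, 3 intervals 35157 to 38816 bp from its TSS are nearest to Nutf2-ps1, with differences of 1.25, 1.06 and 0.95, and the last of them holds 2 κB sites.

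Among the Dusp intervals large differences went with low control levels. The 3 with fewer than 10 control reads had differences of 2.08 to 2.38, and the 3 with more than 100 had 0.49 to 0.69. The whole table has the same shape, since the smallest difference among higher intervals was 1.70 for 354 intervals under 10 control reads, and 0.49 for 226 above 100. The part that this listing has in the order of the Dusp genes by difference was not tested.

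**Figure D3:**
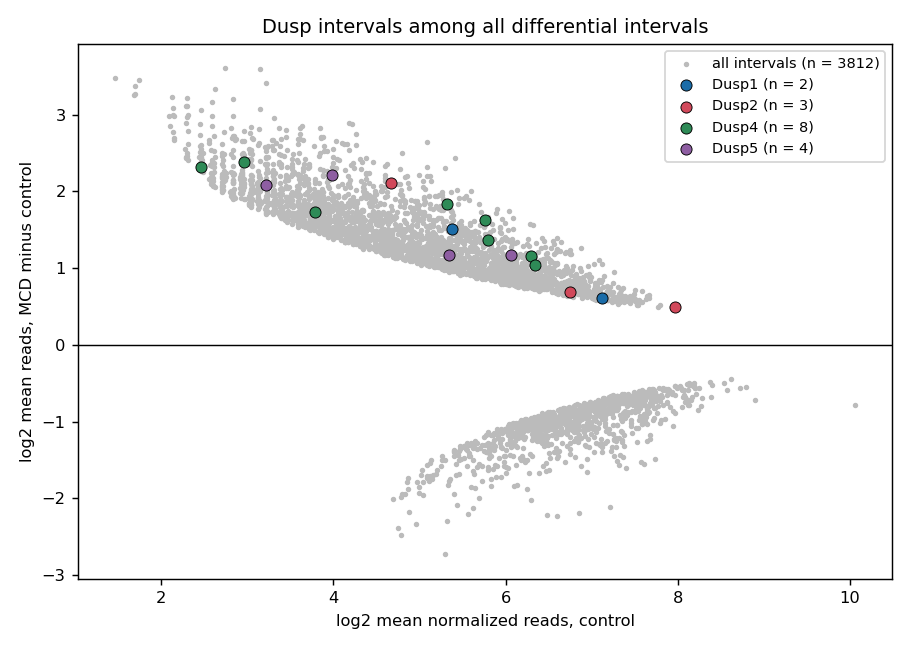
Difference in log2 mean reads (MCD minus control, y axis) against log2 mean normalized reads in control (x axis) for all 3812 intervals (grey) and for those of Dusp1, Dusp2, Dusp4 and Dusp5 (coloured). All 17 coloured points lie above 0, and the interval at the Dusp2 TSS sits farthest right of them with the smallest difference.

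By position, 2 of the 17 Dusp intervals (11.8%) lay within 3 kb of a TSS, both at Dusp2, compared with 17.6% of the higher and 15.3% of the lower intervals. The median distance was 23770 bp, against 14298 bp for all higher intervals. Carrying several intervals was not rare: of the 2582 genes with an interval, 701 (27.1%) had at least 2, 261 (10.1%) at least 3 and 112 (4.34%) at least 4. Intervals without any repeat made up 4 of the 17 (23.5%) and 41.6% of all higher intervals. The median GC content was 50.2%, against 47.8%.

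Sequence motifs were searched on both strands of the reference as AP-1 (TGANTCA, bound by Fos and Jun proteins), κB, C/EBP (TTNCNNNAA), the PU box (GAGGAAGT), CRE (TGACGTCA), CArG and ETS (CCGGAAGT). AP-1 sites were present in 10 of the 17 Dusp intervals (58.8%), with 13 sites in all. Among all higher intervals the share was 52.8%, and among lower ones it was 3.33%, so the Dusp share stands near that of the higher intervals. The AP-1 sites lay a median of 37 bp from the interval centre, against 38 bp in all higher intervals. They occurred at Dusp1 (2 of 2 intervals), Dusp2 (2 of 3), Dusp4 (4 of 8) and Dusp5 (2 of 4). Intervals with an AP-1 site had a median difference of 1.33 (n = 10) and those without 1.73 (n = 7), and over all higher intervals these were 1.38 and 1.41.

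κB sites were present in 1 of the 17 (5.88%), against 8.67% of the higher and 2.54% of the lower intervals. C/EBP motifs occurred in 6 (35.3%), 5 of them at Dusp4, against 31.2% and 41.6%. The PU box occurred in 1 (5.88%), against 4.66% and 15.9%. CRE, CArG and ETS had no match in the 17 and matched at most 1.47% of the higher intervals. A match is a description of the reference letters, and a window without one says nothing about the factor.

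**Figure D4:**
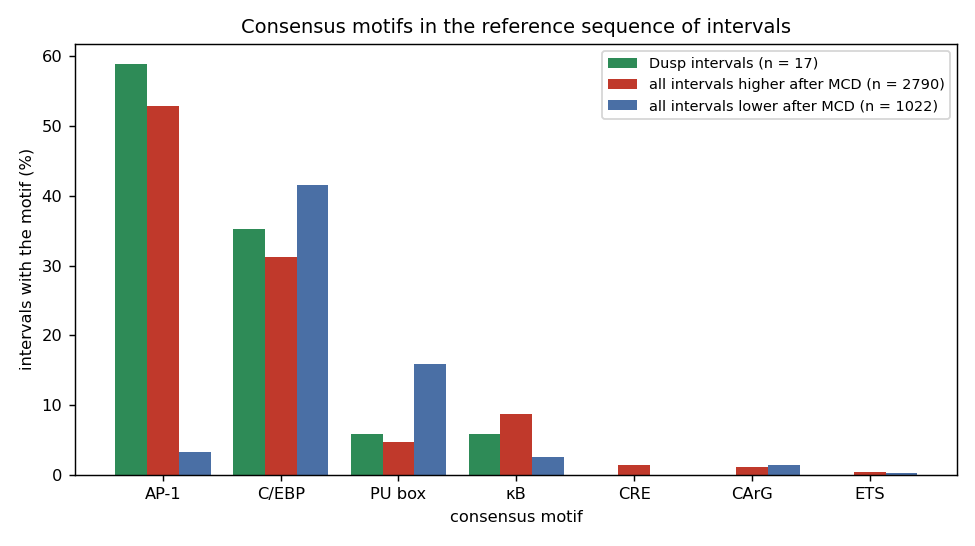
Percent of intervals whose reference sequence holds each of 7 consensus motifs (y axis, from 0), for the 17 Dusp intervals, the 2790 intervals higher after MCD and the 1022 lower. AP-1 shows the widest gap between higher and lower intervals, and the Dusp bar of 58.8% stands near the 52.8% of the higher intervals.

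Intervals were then counted for the genes around these phosphatases. Of the 22384 genes with a TSS, 11.5% had at least 1 interval and 8.63% had at least 1 that was higher, while 4 of the 5 Dusp genes did, a count that the choice of these genes used. Of the other 5 typical MAP kinase phosphatase genes, 2 had intervals, and all 3 intervals were higher, against 73.2% of the whole table. Dusp8, a phosphatase of JNK and p38, had one at its TSS, from 120 to 215 mean reads (0.84), and one 6096 bp downstream, from 31.8 to 86.1 (1.44). Dusp16, a phosphatase of JNK, had one 9547 bp past its TSS, from 12.7 to 44.7 mean reads (1.82).

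Of the 10 MAP kinase genes, the substrates of these phosphatases, 2 had intervals, both for p38 kinases. Mapk14 had 2, with differences of 1.19 and 1.79, and Mapk11 had 1 at its TSS, with a difference of 1.11. Of 22 upstream kinase genes, 10 had an interval, 5 with a higher and 7 with a lower one (2 genes had both), and the median of their 14 differences was -0.03. Map2k3, a p38 activator, held the largest increases (2.05 and 1.49), while Map3k5 had one interval lower (-1.57) and one higher (1.16). Of the 10 downstream kinase genes, 3 had intervals, all 4 of them higher, against 73.2% of the whole table. They were at Rps6ka3 (2.21), Rps6ka1 (1.18 and 0.86) and Mapkapk2 (1.04). The Rps6ka3 interval lies 272462 bp upstream of its TSS and had 10.9 mean reads in control. Of the 7 other ERK pathway inhibitor genes that could be placed, Spred1 alone had an interval, 7107 bp upstream and lower (-0.91). Over the 5 lists, 18 of 54 genes (33.3%) had an interval, with 17 intervals higher and 8 lower and a median of 1.04, beside 1.14 over the whole table.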

How the data were processed

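ATAC-seq was done in 2 control and 2 MCD samples of RAW264.7 macrophages (RAW 267.4 in the labels). Reads were aligned by the authors to GRCm38 with Bowtie2 (2.4.4 per the submitters' processing notes), duplicates were removed and peaks were called with MACS2 (the notes name MACS3 3.0.0). Any shift of reads for the transposase, whether peaks were called per sample and the scaling are not given in the sources used here. The deposited DiffBind table holds the authors' log2 mean normalized reads, on which the values here rest. Its fold, p-value and FDR columns, also deposited, hold the authors' comparison and were not used, except that the largest FDR was read (0.05).

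Intervals were assigned to the nearest TSS, among transcripts with an Entrez identifier (GENCODE M21, 22384 genes). The linear means were solved for whole reads of 2 libraries per condition (tolerance 1e-06), and the steps were tested on simulated data. No test was fitted to the recovered libraries, because the same contrast chose the rows. The counts of reads cover counting error only, and the depth of whole libraries was not used here. The text names the 5 Dusp genes and at most 4 genes per list, those with the largest absolute difference. The members and lists were chosen with earlier results of these data known. Python 3.11.15, numpy 2.4.6, pandas 2.3.3 and pysam 0.24.0 were used. Alternatives covered the assignment, the promoter distance, the thresholds, the motif and the scaling. Expression values were not used here.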

Additional observations from a re-analysis of the deposited data

How the results depend on the processing

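Of 46 recomputed values, 35 were classed as the same and 11 as moved. Most are counts, which have no direction, and a count can be classed as moved because fewer intervals entered. Thus 9 of 9 higher was classed as moved, while 3 of 5 genes with an interval was classed as the same. All Dusp intervals were higher under every assignment tried. Where a setting only drew a subset of the same 17 intervals, or kept differences of at least 1, this could not come out otherwise. With all annotated genes, 9 of 9 intervals were higher and the median difference was 1.16. Without the Dusp4 intervals, these were 9 of 9 and 1.17, and AP-1 sites were in 6 of 9. Taking only TGACTCA or TGAGTCA as an AP-1 site gave 8 of 17 intervals. A window of 400 bp gave 11 of 17, and assignment among all annotated genes gave 7 of 9. Counting every interval within 50 kb of a Dusp TSS gave a median of 1.17. With differences of at least 1 alone, the median was 1.68 and 1 of 14 intervals lay within 3 kb of a TSS. With a promoter distance of 1 kb, 1 of all 17 intervals lay within it. Reads without scaling gave a median of 1.75, and leaving out each library in turn gave medians of 1.32 to 1.52. All 17 stayed higher without any 1 library, which was fixed beforehand because both MCD libraries lay above both control libraries in each. Dusp4 chr8:34822739-34822939 moved most, from 2.38 to 1.83 without control library a and 3.26 without control library b. Fewer intervals enter each smaller set, and the cause was otherwise not tested. With 1 TSS per gene, the outermost, 3 of the 5 genes had an interval. The settings without Dusp4, with the outermost TSS, without scaling and without a library were chosen after seeing the data. No paired analysis was possible because the recovered libraries carry no replicate number. The counts of 4 to 10 reads per control library limit the 2 lowest Dusp4 intervals and the outermost upstream Dusp5 interval.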

Other observations

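Dual-specificity phosphatase genes outside the typical MAP kinase phosphatases also had intervals, and they were picked after their values were seen. Dusp22, an atypical member of the family, had 2, which lie 1979 and 38026 bp upstream of its TSS. The nearer went from 16.6 to 64.1 mean normalized reads (a difference of 1.95 on the log2 scale) and the farther from 8.26 to 29.2 (1.82). Dusp26 had 1 interval 1919 bp upstream, from 8.26 to 28.6 (1.79), and Dusp19 had 1 lying 6782 bp past its TSS, from 15.8 to 45.5 (1.53). AP-1 sites were present in 3 of these 4 intervals, beside 52.8% of all higher intervals. Over all 24 Dusp genes with a TSS, 9 had an interval, beside 11.5% of all genes with a TSS. All 24 of their intervals were higher after MCD, against 73.2% of the whole table. These counts include the 17 intervals of the 4 member genes and the 3 of Dusp8 and Dusp16, already described above, so they are not a separate result.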
